A study of Mus musculus with 2 samples.

Results

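The genes described here code for the protein subunits of the mitochondrial ribosome, named Mrpl for the large subunit and Mrps for the small subunit. Membership was set by symbol, as all genes whose symbol is Mrpl or Mrps followed by a number, with pseudogenes left out. The symbol rule gave 77 of the 27998 genes listed, 48 Mrpl and 29 Mrps genes. The set itself was chosen with earlier results of these data known. Its genes were measured in islet cells of C57BL/6J wild-type mice given regular chow (4 mice) or a high-fat diet with 60% fat (HFD, 5 mice) for 6 weeks after weaning. Islets of each diet group went into a single droplet library that counts unique molecular identifiers (UMIs, 1 per captured transcript molecule), and no cell is tied to a mouse. The diets therefore have 1 library each and no replicate check, and any difference between them may also be a difference between libraries. Islets were picked by hand and kept in culture overnight before dissociation in both groups.

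Mitochondria keep a small genome and translate its few messenger RNAs, all for subunits of the respiratory chain and the ATP synthase, on ribosomes of their own. All proteins of these ribosomes are coded in the nucleus, made in the cytosol and imported. In beta cells, the islet cells that secrete insulin, mitochondrial ATP production links glucose uptake to insulin release.

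After filtering, 6109 chow cells and 4200 HFD cells remained, with a median of 12414 and 13911 UMIs per barcode before filtering, and 41 barcodes were shared between the libraries. Cells were typed by hormone share: beta cells had at least 20% of UMIs from the insulin genes Ins1 and Ins2, then alpha cells at least 5% from Gcg (glucagon), delta cells at least 1% from Sst (somatostatin) and PP cells at least 15% from Ppy (pancreatic polypeptide). This gave 4372 chow and 2968 HFD beta cells, 740 and 374 alpha cells, 447 and 370 delta cells, 199 and 154 PP cells, and 351 and 334 others. Alpha markers other than Gcg summed to 28634 CPM (UMI counts scaled to 1000000 per type and library) in chow alpha cells against 711 in chow beta cells, and the beta markers Nkx6-1, Slc2a2, Ucn3, Mafa and Pdx1 to 509 CPM in chow beta cells against 42.2 in chow alpha cells. Of these beta markers, Nkx6-1, Slc2a2 and Ucn3 were highest in chow beta cells. Mafa was nearly absent there (0.07 CPM), and Pdx1 was higher in chow delta cells (63.2 CPM) than in chow beta cells (52.2 CPM). Of PP markers beside Ppy, the peptide gene Pyy was at 132284 CPM in chow PP cells. Its level was 90424 in chow delta cells and 1518 in chow beta cells. Fxyd6, Tspan8 and Vipr1 together were at 668 CPM in chow PP cells and 747 in chow delta cells, most of it Tspan8 (583 and 512). Fxyd6 was lower in chow PP cells (75.5 CPM) than in chow beta (98.0), alpha (236) and delta cells (232). Vipr1 was at 8.88 CPM in chow PP cells, 14.2 in beta, 18.2 in alpha and 3.43 in delta cells.

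Every typed cell held at least 1 UMI of the members, and a median chow beta cell held 40. Transcripts of the hormone genes Ins1, Ins2, Iapp, Gcg, Sst, Ppy and Pyy took 60.7% of the UMIs of chow beta cells and 28.9% of those of chow alpha cells, and this share sets how the members' CPM compare between types. Per 1000000 UMIs of all genes, the members summed to 2927 in chow beta cells, 5109 in chow alpha cells, 5300 in chow delta cells, 3035 in chow PP cells and 6346 in the other cells of the chow library. Per 1000000 UMIs without the hormone genes, the same sums were 7458 in chow beta cells, 7189 in alpha, 7918 in delta and 7137 in PP cells. The chow beta cells therefore stood among the other endocrine types once hormones were left out.

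In the HFD library the summed level per 1000000 non-hormone UMIs was 5744 in beta cells, 6875 in alpha cells, 7283 in delta cells and 6554 in PP cells. The HFD beta cells had the lowest of these sums. Relative to chow the difference was -23.0% in beta cells, -4.37% in alpha cells, -8.01% in delta cells and -8.17% in PP cells. On CPM of all UMIs the HFD sums were 2286, 4741, 5138 and 2983, with differences of -21.9%, -7.21%, -3.05% and -1.72% in the same order. With cells thinned to 3800 UMIs each, the mean number of member UMIs per beta cell was 11.1 in chow and 8.64 in HFD, against 19.5 and 18.2 in alpha cells.

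**Figure D1:**
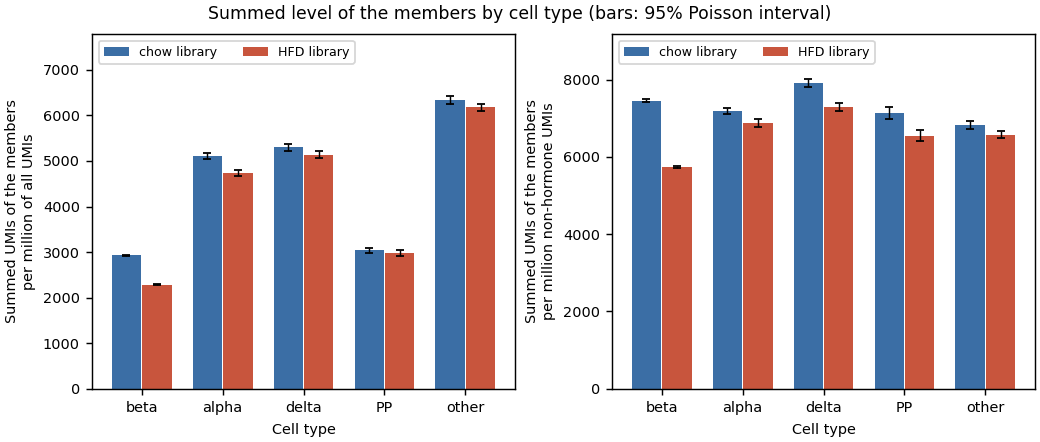
Summed UMIs of the 77 members by cell type and library, per 1000000 of all UMIs (left) and per 1000000 UMIs without hormone genes (right), with 95% Poisson intervals that cover counting error only. On the right, the HFD beta cells (5744) are the lowest bar, and the chow beta cells (7458) stand near the chow alpha cells (7189).

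For single genes the HFD to chow ratio was taken on the log2 scale with 0.5 counts added to each sum, and the median ratio over all genes with at least 50 counts in the type was subtracted, so that 0 is the ratio of the middle gene. That median was 0.19 in beta cells, -0.01 in alpha, and 0.08 in both delta and PP cells. Intervals beside these ratios are 95% counting intervals and hold no variation between mice. Ratios of -0.5 or below, or 0.5 or above, are called past the fold. No p-value is given for diet.

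In beta cells, 76 of the 77 members had at least 50 counts, and all 76 had a relative ratio below 0, with a median of -0.49. Past the fold on the low side were 35 of the 76 (46.1%), against 12.1% of the 12252 genes tested, and 0 were past it on the high side, against 6.11%. Among the 5987 genes with a mean level like that of the members (7.30 to 76.8 CPM), 11.5% were past the fold on the low side, 1.87% on the high side, 53.3% lay below 0 and the median was -0.02. The counting interval lay wholly below 0 for 69 members, against 29.7% of all genes tested. Without subtracting the all-gene median, the members' median was -0.30, where that of all genes tested was 0.19. On this scale 69 of 76 members had a lower CPM in the HFD library, and the share of all genes was not counted. The 77th member, Mrpl53, had 25 counts in the chow and 1 in the HFD beta cells and shares exon sequence with another listed gene.

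The large subunit holds the centre that joins amino acids. Of its 30 members with a bacterial counterpart, 16 were past the fold on the low side, and their median was -0.52. Mrpl21 stood at 34.0 CPM in the chow library and at 18.4 in the HFD library. Its relative ratio of -1.08 (interval -1.19 to -0.97) was the second lowest of all members. Mrpl16, the counterpart of bacterial L16, which lies beside the transfer RNA sites, stood at 10.9 CPM in chow and 6.62 in HFD, a relative ratio of -0.91. Mrpl17 stood at 76.5 and 50.7 CPM (-0.79), and Mrpl23 at 91.7 and 62.0 CPM (-0.76). Mrpl10 and Mrpl12 form the stalk that recruits translation factors, and the ratios of this pair differed. Mrpl12 was at 27.8 CPM in chow and 21.8 in HFD (-0.55), whereas Mrpl10 was at 16.5 and 15.8 CPM (-0.26). Mrpl3, Mrpl9 and Mrpl19 had the highest ratios of this class. Mrpl3 had 10.8 CPM in chow and 11.6 in HFD (-0.10), Mrpl9 had 10.2 and 10.7 (-0.12), and Mrpl19 had 9.85 and 9.62 (-0.23).

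Large-subunit proteins without a bacterial counterpart surround that core. Of the 19 in this class with enough counts, 8 were past the fold on the low side, with a median of -0.43. Mrpl46 stood at 19.1 CPM in chow and 12.4 in HFD (-0.82), Mrpl57 at 91.7 and 61.7 CPM (-0.76), and Mrpl54 at 92.4 and 63.6 CPM (-0.73). Mrpl45, which lies at the exit of the growing chain and faces the inner membrane, was at 7.70 CPM in chow and 8.28 in HFD (-0.09, interval -0.28 to 0.10). Its interval spans 0, so no shift was detectable at this depth. Mrpl37 had 7.61 and 7.84 CPM (-0.15). Mrpl52, among the most abundant members, had 104 and 92.8 CPM (-0.36).

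The small subunit binds the messenger RNA and reads its codons. Of its 16 members with a bacterial counterpart, 8 were past the fold on the low side, with a median of -0.51. Of the 10 without one, 3 were past it, with a median of -0.41. Mrps28 had the lowest ratio of all members, with 38.6 CPM in the chow library, 20.7 in the HFD library and a relative ratio of -1.09 (interval -1.20 to -0.99). Mrps14, one of the more abundant members, had 102 CPM in chow and 64.4 in HFD (-0.86). Mrps12, part of the site where codons are read, stood at 131 and 99.7 CPM (-0.59). Mrps25 was at 17.3 and 11.2 CPM (-0.82). The 2 members with the highest beta-cell level, Mrps33 at 175 and 148 CPM (-0.43) and Mrps21 at 142 and 126 CPM (-0.37), lay inside the fold. Mrps2, with 4.82 CPM in chow and 5.21 in HFD, had the highest ratio of all members (-0.08, interval -0.32 to 0.16), and Mrps31 was at 4.21 and 4.25 CPM (-0.18, interval -0.44 to 0.08). Neither can be told from the middle gene at this depth.

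Mammals have 3 paralogs of the bacterial S18 protein, and all 3 were past the fold (Mrps18a and Mrps18b are counted above among the members without a counterpart, by their place in the ribosome). Mrps18c was at 42.0 CPM in chow and 25.4 in HFD (-0.92), Mrps18b at 28.0 and 17.7 CPM (-0.86), and Mrps18a, whose protein sits in the large subunit despite its name, at 42.0 and 27.9 CPM (-0.78). Mrps30, also a large-subunit protein by its place, was at 7.31 and 6.39 CPM (-0.39). Mrps36, now known as a component of the 2-oxoglutarate dehydrogenase complex rather than of the ribosome, was at 34.8 CPM in chow and 35.1 in HFD (-0.18). The values nearest the fold were those of Mrpl30 (68.9 and 55.6 CPM, just past -0.5) and Mrpl48, just inside it. Exons of 4 members overlap another gene on the same strand and those of 24 overlap one on the opposite strand in the GENCODE M21 annotation, Mrpl21, Mrps18b and Mrpl46 among the latter. The sources used here do not state whether reads were counted by strand, and the values of these members are uncertain.

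**Figure D2:**
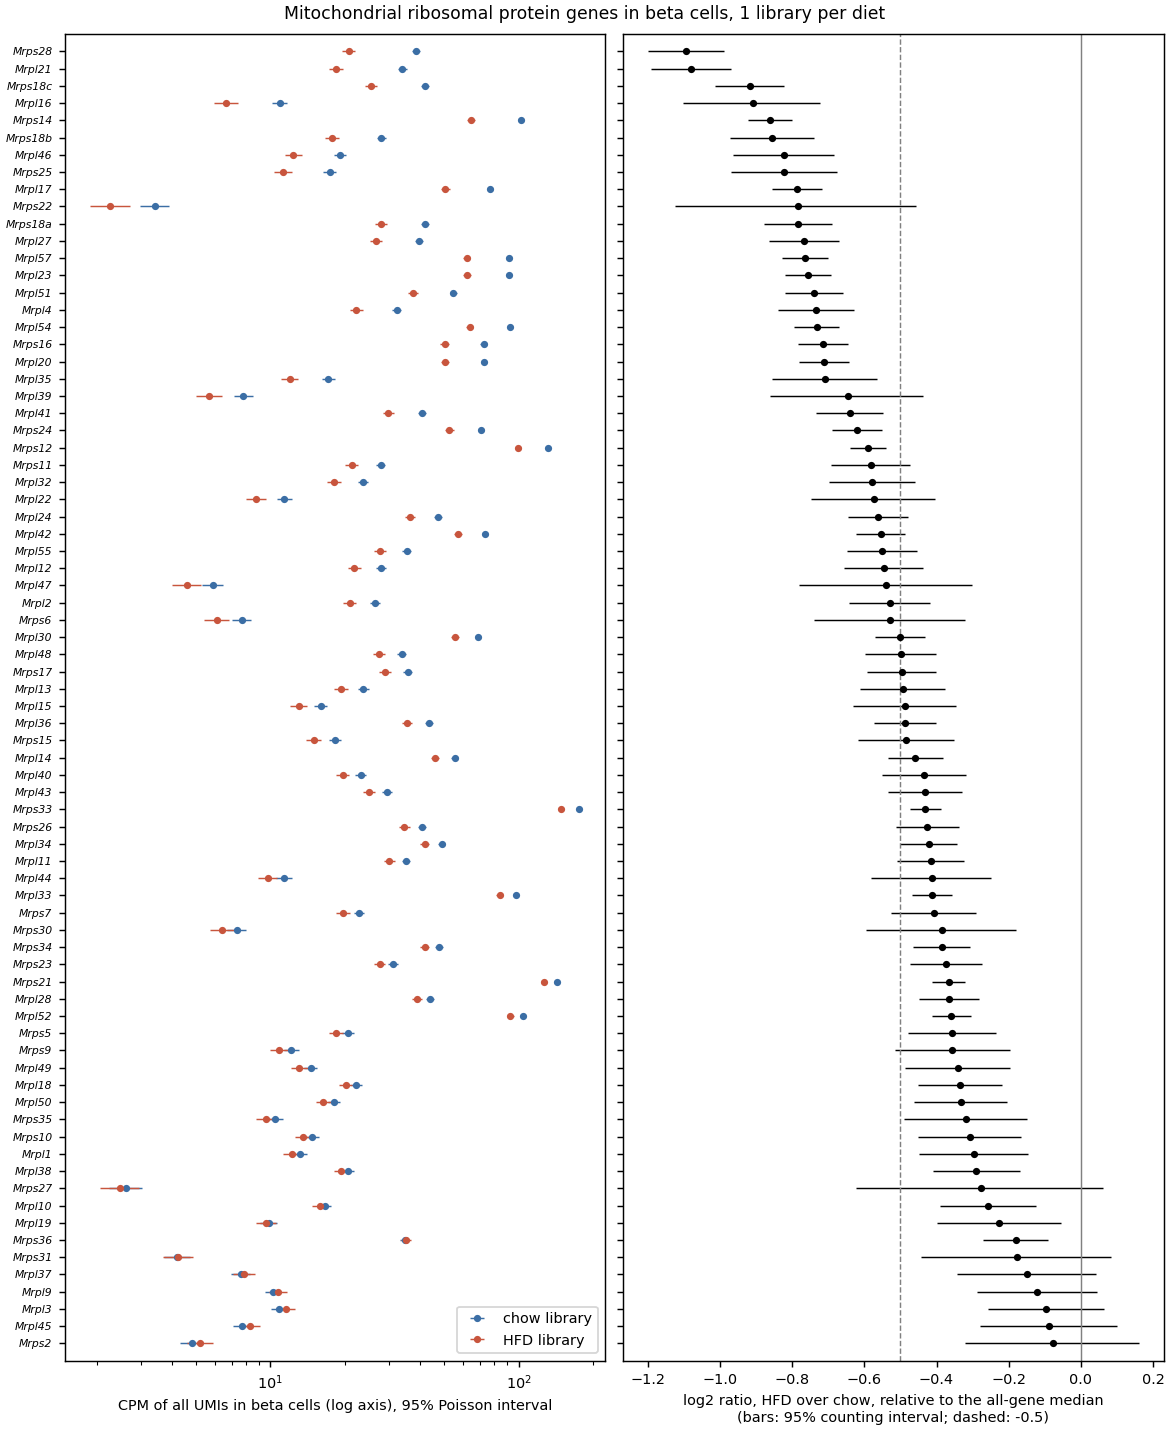
Each member with at least 50 counts in beta cells, ordered by its HFD to chow ratio. Left, CPM in the chow and HFD libraries (log axis, 95% Poisson intervals); right, the log2 ratio relative to the all-gene median with 95% counting intervals, the dashed line at -0.5. All 76 points lie left of 0, from -1.09 (Mrps28) to -0.08 (Mrps2).

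Promoters of these genes are known to carry sites for NRF1, ETS-family factors such as GABP, and YY1. RefSeq windows of 300 bases (250 before to 50 after the gene start, build GRCm38.p6) were matched for 68 members, some with more than 1 window. They were searched on both strands for GCGCA and GCGC parted by any 1 base (NRF1), CCGGAAG (ETS) and AAGATGGCG (YY1). At least 1 of these was found for 40 members (58.8%), against 19.3% of the 17999 genes with windows and 32.0% of the 9205 of these expressed in beta cells. The NRF1 letters were in the windows of 13 members (19.1%, against 6.94% of all genes and 12.02% of expressed genes), the ETS letters in those of 25 (36.8%, against 12.5% and 20.3%) and the YY1 letters in those of 8 (11.8%, against 2.11% and 3.79%). The letters CACGTG were found for 5 (7.35%, against 8.97% and 11.9%) and TGACGTCA for 2 (2.94%, against 2.60% and 4.01%). The median diet ratio in beta cells was -0.54 for members with the ETS letters and -0.49 for those without, -0.46 and -0.50 for NRF1, and -0.57 and -0.48 for YY1. Members with and without each motif thus had close medians. The 250 bases before the gene start are shown 5′ to 3′ on the gene's strand for the 4 members with the lowest beta-cell ratios among those with 1 window and a match to the NRF1, ETS or YY1 letters before the start, with these matches in capitals. They lie at chr5:100798509-100798758 (plus strand, Mrps18c), chr7:105811088-105811337 (minus, Mrpl17), chr9:98601680-98601929 (minus, Mrps22) and chr17:46110754-46111003 (plus, Mrps18a). The match in Mrps18c is the ETS motif on the opposite strand, beside a CACGTG left in lower case, Mrpl17 holds ETS and NRF1 letters, and Mrps22 and Mrps18a hold ETS letters close to the gene start.
Mrps18c: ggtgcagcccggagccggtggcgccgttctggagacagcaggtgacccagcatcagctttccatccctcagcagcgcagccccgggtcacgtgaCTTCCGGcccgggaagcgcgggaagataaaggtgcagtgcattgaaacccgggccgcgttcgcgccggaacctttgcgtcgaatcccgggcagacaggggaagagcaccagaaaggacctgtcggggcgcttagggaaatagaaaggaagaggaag
Mrpl17: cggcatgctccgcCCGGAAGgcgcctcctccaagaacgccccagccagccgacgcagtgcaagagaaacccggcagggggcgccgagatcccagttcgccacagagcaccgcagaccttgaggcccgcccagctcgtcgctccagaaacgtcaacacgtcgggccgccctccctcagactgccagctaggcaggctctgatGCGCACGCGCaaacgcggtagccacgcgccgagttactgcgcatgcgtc
Mrps22: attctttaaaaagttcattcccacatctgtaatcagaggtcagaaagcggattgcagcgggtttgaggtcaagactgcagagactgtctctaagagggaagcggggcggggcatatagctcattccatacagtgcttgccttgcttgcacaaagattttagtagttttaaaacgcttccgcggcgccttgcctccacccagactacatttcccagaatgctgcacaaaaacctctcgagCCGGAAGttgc
Mrps18a: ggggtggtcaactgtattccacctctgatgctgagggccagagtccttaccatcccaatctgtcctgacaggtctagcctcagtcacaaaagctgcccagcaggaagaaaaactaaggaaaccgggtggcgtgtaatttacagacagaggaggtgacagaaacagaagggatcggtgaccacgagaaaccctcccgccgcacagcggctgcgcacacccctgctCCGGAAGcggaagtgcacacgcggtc

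Genes that work with the mitochondrial ribosome were counted from lists, in the same beta cells and on the same relative scale. Of 6 ribosome subunits under other names, 4 were past the fold on the low side, with a median of -0.68. Ict1, a large-subunit protein with peptide-release activity, was at 43.4 CPM in chow and 28.0 in HFD (-0.82), and Gadd45gip1 had a ratio of -0.78, whereas Ptcd3, a small-subunit protein, had 5.31 and 6.13 CPM (0.02). Of 23 genes for assembly of the ribosome, 18 were below 0 and 3 past the fold, with a median of -0.21, between Mpv17l2 (-0.61) and Gtpbp10 (0.15). The 10 translation factors had a median of -0.01 with 1 past the fold on the low side, the elongation factor gene Tsfm (16.4 and 12.4 CPM, -0.59). The 19 mitochondrial aminoacyl-tRNA synthetases, which load transfer RNAs, had a median of -0.04, with 0 past the fold on the low side and 1 on the high side. The 14 genes for transcription and RNA handling in mitochondria had a median of 0.07, with 2 past the fold on the low side and 1 on the high side. For the 13 mitochondrially encoded proteins, which these ribosomes make, the median was 0.03, with values from -0.29 (mt-Nd1) to 0.67 (mt-Nd4l) and 0 past the fold on the low side.

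Nuclear genes listed for complex I, the first enzyme of the respiratory chain, had a lower median than the members on this scale. The list was drawn by symbol and includes Ndufa4 (-0.75) and Ndufa4l2 (-0.67), so not every gene in it need be a complex I subunit. All 37 listed were below 0 and 28 past the fold on the low side, with a median of -0.74. Ndufb6 (-1.23) and Ndufc2 (-1.20) were the lowest and Ndufa3 (-0.01) the highest of the named genes. Of the 81 cytosolic ribosomal protein genes with enough counts, 64 were below 0 but 2 were past the fold on the low side, with a median of -0.15. Set against genes of like expression, the medians were closer for the complex I list (-0.47) and the members (-0.43), and that of the cytosolic genes was 0.08. In alpha cells the median of the complex I list was 0.05 (11 of 36 below 0), in delta cells -0.12 and in PP cells -0.18.

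Several other measures moved with diet in the beta cells. UMIs of the heat-shock genes Hspa1a or Hspa1b were found in 33.1% of chow and 4.25% of HFD beta cells. Among cells without such UMIs the members' median was -0.39, with 76 of 76 below 0 and 24 past the fold, against 8.9% of all genes. The median depth was 14653 UMIs in chow and 16758.5 in HFD beta cells, and after thinning every cell to 3800 UMIs the members' median was -0.46. Of marker lists for other cells, all of them detected in beta cells, the 5 acinar genes summed to 18.1 CPM in chow and 4.93 in HFD, the 4 ductal genes to 308 and 158, the alpha genes without Gcg to 711 and 443, the 6 endothelial genes to 17.7 and 21.4, the 6 macrophage genes to 29.8 and 46.2, the 6 mesenchymal genes to 1.37 and 6.70, and the 5 PP genes with Ppy and Pyy to 3630 and 4921. The ductal sums came almost wholly from Krt7 (222 and 141 CPM) and Spp1 (86.1 and 16.2), which alpha, delta and PP cells also held. Krt19 (0.39 and 0.44 CPM) and Sox9 (0.03 and 0.12) were nearly absent in beta cells of both libraries. Heat-shock UMIs were also less frequent in HFD than in chow alpha cells (1.34% against 13.5%), delta cells (5.95% against 19.0%) and PP cells (3.25% against 26.6%). The part of these measures in the members' values was not tested.

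The diet ratio was not uniform over beta cells. In cells with 20 to 40%, 40 to 60% and over 60% of UMIs from insulin, the members' medians were -0.35 (21 of 74 past the fold on the low side, against 8.83% of all genes), -0.52 (39 of 76, against 13.3%) and -0.38 (23 of 74, against 11.4%). Below 0 were 67, 76 and 71 of them, where 49.9% or 50% of all genes were. Their summed level per 1000000 non-hormone UMIs was 6938, 7489 and 7677 in chow and 5489, 5666 and 6226 in HFD, so the HFD value was the lower in each of the 3 ranges. When beta cells were clustered without the members and hormone genes, the libraries fell largely into different clusters. The summed CPM of the members was lower in HFD in 15 of 15 clusters, but 4 of them held at least 100 cells of each library, with 42.0% of chow and 59.7% of HFD beta cells. Within these 4, clusters 0, 1, 4 and 6, the medians of the members were -0.20, -0.23, -0.12 and -0.19, smaller than over all beta cells. Below 0 were 54 of 73, 59 of 74, 52 of 74 and 56 of 74 members, and past the fold on the low side 10, 5, 4 and 3, where 6.87%, 5.04%, 8% and 5.98% of all genes were. The share past the fold was thus above that of all genes in cluster 0, near it in cluster 1 and under it in clusters 4 and 6, whereas the share below 0 exceeded the 50% of all genes in each. Cluster 0 was led by Abhd2, Rpgrip1 and Pam, cluster 1 by Pyy and Ppy, cluster 4 by Npy and mitochondrially encoded genes, and cluster 6 by Serpina3n and the sterol synthesis genes Hmgcs1 and Idi1.

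Transcript length also moved with the diet ratio. The members are short, with a median of 852 bases against 1292 for genes of like expression in beta cells (GENCODE M21). Among genes of like expression, the median relative ratio was -0.12 for transcripts under 1000 bases and 0.13 for those over 3000 bases. The members' median was -0.50 in the 51 under 1000 bases, -0.37 in the 11 of 1000 to 1500, -0.54 in the 5 of 1500 to 2000, -0.43 in the 7 of 2000 to 3000 and -0.34 in the 2 over 3000. Set against genes of like length and expression, the members' median in beta cells was -0.34, with 72 of 76 below 0 and 20 past the fold on the low side. The shares of all genes were not counted on this centring, so these 2 counts have no background beside them.

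**Figure D3:**
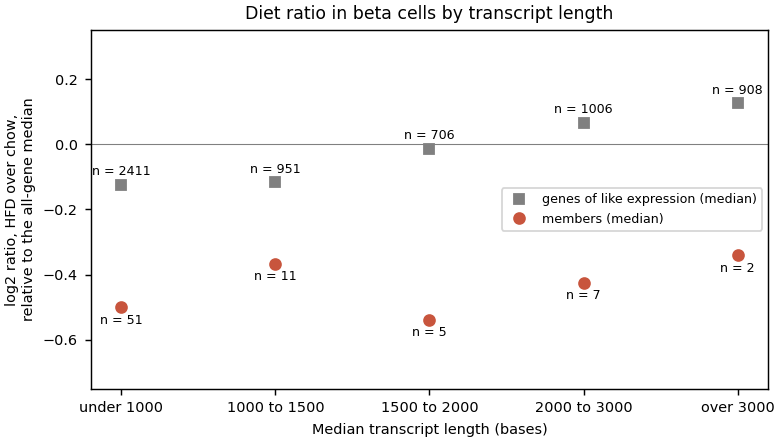
Median relative log2 ratio (HFD over chow) in beta cells by median transcript length, for the members (circles) and genes of like expression (squares), with the number of genes beside each point. The squares climb from -0.12 to 0.13 with length, and the circles lie below them in every bin.

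In alpha cells the members lay close to the middle gene. The median was -0.08, with 55 of 76 below 0, 2 past the fold on the low side (2.63%, against 7.38% of the 8919 genes tested) and 2 on the high side (against 6.68%). Among genes of like expression these shares were 3.89% and 4.9%, and 48.4% lay below 0. Mrps2 (-0.58) and Mrpl45 (14.1 and 9.81 CPM, -0.50), the members with the highest ratios in beta cells, were the 2 on the low side. On the high side, Mrps31 was at 11.3 CPM in chow and 19.1 in HFD (0.78, interval 0.30 to 1.26), and Mrps27 had a ratio of 0.88. Mrpl21, so low in HFD beta cells, had 62.3 CPM in chow and 73.7 in HFD alpha cells (0.25).

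In delta cells the median was -0.14, with 54 of 75 below 0, 1 past the fold on the low side (1.33%, against 4.47% of 8616 genes) and 0 on the high side (against 7.4%). Among genes of like expression these shares were 2.79% and 4.15%, and 53% lay below 0. That 1 was Mrps28, with 79.6 CPM in chow and 58.7 in HFD (-0.52, interval -0.78 to -0.27), the gene that was also lowest in beta cells. Mrpl9 had the highest ratio, with 21.3 and 29.7 CPM (0.39). In PP cells, the least sampled type, the median was -0.09, with 47 of 71 below 0, 5 past the fold on the low side (7.04%, against 7.36% of 5706 genes) and 1 on the high side (against 11.6%). Among genes of like expression these shares were 6.49% and 10.7%, and 48% lay below 0. Those 5 were Mrpl44 (22.5 and 14.2 CPM, -0.74), Mrpl11 (37.9 and 24.6 CPM, -0.70), Mrpl12 (28.0 and 19.99 CPM, -0.56), Mrps5 (-0.53) and Mrps28 (37.9 and 28.3 CPM, -0.50). The 1 on the high side was Mrpl18, at 15.4 and 25.4 CPM (0.64, interval 0.06 to 1.23).

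Of the 71 members with enough counts in all 4 types, 27 were below 0 in all 4 and 0 were above it in all 4, against 18.7% and 15.2% of the 5635 genes tested in all types. Of the same 71, 58 had their lowest ratio in beta cells, against 43.1% of these genes. The beta-cell counting interval lay wholly below that of alpha cells for 45 of 76 members, against 17.2% of all genes tested in both, and wholly above it for 0, against 5.33%. For delta cells the counts were 38 of 75 (against 15.2%) and 0 (against 1.79%), and for PP cells 26 of 71 (against 16.7%) and 0 (against 1.81%). These intervals cover counting error, and the difference between types was not tested because each type has 1 library per diet.

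**Figure D4:**
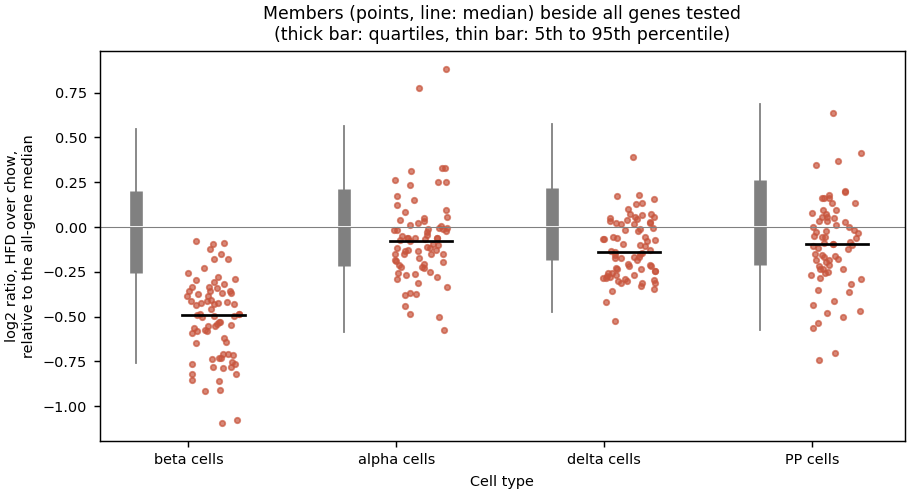
Relative log2 ratio (HFD over chow) of each member with at least 50 counts (points, with the median as a line) beside all genes tested (thick bar for quartiles, thin bar for the 5th to 95th percentile) in beta, alpha, delta and PP cells. The beta-cell points all lie below 0 with a median of -0.49, and those of the other 3 types straddle 0 with medians of -0.08, -0.14 and -0.09.

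Cell types could be compared with a test, since both libraries hold every type. Counts were summed for each of 4 types in 2 libraries, and each type was set against beta cells with the library as a block in edgeR's quasi-likelihood test (11106 genes, 76 members, 3 residual degrees of freedom, Benjamini-Hochberg adjustment, threshold 0.05). The TMM scaling of this fit discounts the large hormone share. The p-values measure spread between these 8 sums and not between mice. In alpha cells, 40 of 76 members were higher than in beta cells (52.6%, against 22.6% of all genes) and 0 were lower (against 23.5%), with a median log2 ratio of 0.41. Of the 76, 47 had an unadjusted p under 0.05 in either direction, and DESeq2 also called 0 lower. In delta cells 37 were higher (48.7%, against 24.6%) and 3 lower (against 25.9%), with a median of 0.33, and in PP cells 22 were higher (28.9%, against 20.4%) and 1 lower (against 21%), with a median of 0.28. In all 3 contrasts, 18 members were called higher. That was the case for 9.6% of all genes. Without the library block 22, 21 and 15 of 76 members were called higher in alpha, delta and PP cells, against 16.1%, 18.5% and 15.1% of all genes. With cells thinned to equal depth 38, 31 and 13 of 75 were, against 19.1%, 22.9% and 12.5%. DESeq2 called 28, 26 and 15 of 76 higher, against 16.6%, 19.6% and 17% of all genes. The PP counts under these settings were near the share of all genes.

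Mrpl36, a small protein of the large subunit, was at 43.4 and 35.4 CPM in the chow and HFD beta cells, 149 and 145 in alpha cells, 170 and 168 in delta cells and 88.1 and 87.9 in PP cells. It was lowest in beta cells in both libraries, with log2 ratios of 1.36 in alpha cells (edgeR adjusted p = 1.1e-06), 1.35 in delta cells (edgeR adjusted p = 1.3e-06) and 1.13 in PP cells (edgeR adjusted p = 2.5e-05). Mrps31 was at 4.21 and 4.25 CPM in beta cells, 11.3 and 19.1 in alpha, 20.02 and 20.44 in delta and 10.2 and 9.16 in PP cells, with log2 ratios of 1.26, 1.495 and 1.17. Its beta-cell values were below all 6 others. The other members among the 4 highest called were Mrpl41 (1.26) and Mrps10 (1.10) in alpha cells, Mrps22 (1.46) and Mrps6 (1.35) in delta cells, and Mrps30 (0.96) and Mrpl47 (0.87) in PP cells, and the call of Mrpl47 was lost when cells were thinned to equal depth. Exons of Mrpl36 overlap Ndufs6 on the opposite strand and those of Mrps6 overlap Slc5a3 on the same strand, so both values are uncertain. The members called lower were Mrpl34 (-0.44, edgeR adjusted p = 0.0153), Mrps12 (-0.41, edgeR adjusted p = 0.0252) and Mrps21 (-0.36, edgeR adjusted p = 0.0453) in delta cells and Mrps21 (-0.45, edgeR adjusted p = 0.0217) in PP cells. These calls did not survive without the library block, and DESeq2 made none of the 3 in delta cells.

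The type ratios were larger in the HFD library, where the beta-cell levels were lower. The members' median against beta cells was 0.24 in chow and 0.64 in HFD for alpha cells, 0.20 and 0.50 for delta cells, and 0.12 and 0.48 for PP cells. The ratio was higher in HFD for 69, 74 and 64 of 76 members, which restates on another scale the lower beta-cell diet ratios given above. In both libraries alike, 59 members were above their beta-cell level in alpha cells and 3 below it, 51 and 8 in delta cells, and 43 and 6 in PP cells. The shares of all genes were not counted for either comparison, so these counts cannot be read as particular to the members. When sums were scaled by UMIs without hormone genes in place of TMM, the median of all genes moved to -0.31 in alpha cells, and 17 members were called higher and 4 lower there (against 12.5% and 38.7% of all genes).

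**Figure D5:**
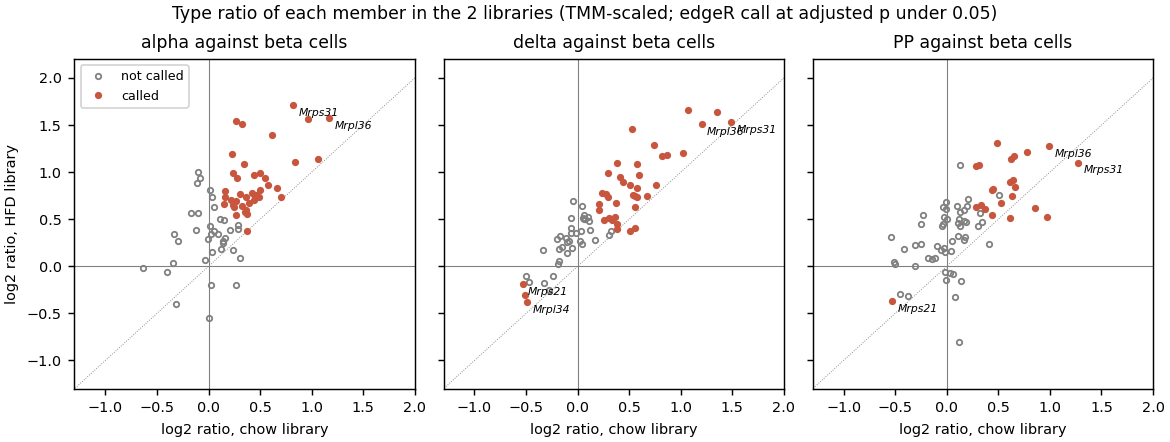
Log2 ratio of each member to beta cells in the chow library (x axis) and the HFD library (y axis), TMM-scaled, for alpha, delta and PP cells, with filled points for members called by edgeR at an adjusted p under 0.05. Most points lie above the dotted line of equal ratios (69, 74 and 64 of 76), and Mrpl36 and Mrps31 are far to the upper right in each panel. The share of all genes above that line was not counted.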

How the data were processed

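Islet cells were profiled by droplet 3' single-cell RNA sequencing, 1 library per diet. The deposited matrices hold raw UMI counts per gene and barcode, which the authors made with a pipeline that the submitters' processing notes name as Cell Ranger 2.1.0. Genome build, annotation and cell calling are not stated in the sources. The libraries held 6509 chow and 4539 HFD barcodes with 89292222 and 68544729 UMIs, and the lowest barcode had 3846 and 4017 UMIs. Barcodes with fewer than 500 genes or over 10% mitochondrial UMIs were left out (122 chow, 145 HFD). Scrublet's own threshold marked 0.0470% and 0.0228% of barcodes and was taken not to have worked. Cells with doublet scores above the cut for the top 5% were removed instead (278 and 194 cells, 4.35% and 4.42%).

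Counts were summed per library and hormone-defined type. Intervals are exact Poisson for CPM and exact Clopper-Pearson for ratios, at 95%, and cover counting error only. Genes of like expression are those within the members' central range of mean CPM; the centred values use the 200 genes nearest in mean CPM. The type fit used edgeR 4.0.16 with TMM and filterByExpr, with DESeq2 1.42.0 as an alternative. The edgeR step was tested on simulated data: for alpha against beta cells, over 10421 genes with 200 changed, it recovered 63.8%, with 3.10% false calls. Apart from the changed genes, the simulated types shared the same expression profile and a fixed spread. They held no difference in hormone share and no diet effect that differed by type. The 3.10% is therefore not the rate of false calls in the real data. Clusters are Leiden clusters (scanpy 1.11.5, 2000 variable genes, 30 components, 15 neighbours).

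The members and lists were chosen with earlier results of these data known. Named members are the 12 highest in beta cells, the 8 lowest and 8 highest beta-cell diet ratios with at least 200 counts, the 3 lowest and 3 highest in each other type with at least 100 counts, the 4 largest and smallest called type ratios, the S18 paralogs, Mrps30, Mrps36, Mrpl10 and Mrpl12, and of each other list the 2 lowest and 2 highest with at least 200 counts. Other members named (those past a fold or an interval rule, those overlapping genes, and promoter examples) were singled out after their values were seen. The alternatives were other scalings, count minimums, doublet handling, equal depth, cell subsets and other tests; centring on length and expression was added after the data were seen.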

Additional observations from a re-analysis of the deposited data

Results flagged for a closer look

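In 4 cases a member's HFD to chow counting intervals lay on opposite sides of 0 in beta cells and in another type. Mrpl21 had a relative log2 ratio of -1.08 in beta cells and 0.25 in alpha cells. Mrps15 had -0.48 in beta cells (18.3 CPM in chow, 14.9 in HFD) and 0.31 in alpha cells (35.4 and 43.5 CPM). Mrpl52 had -0.36 in beta cells and 0.17 in delta cells (184 and 220 CPM). Mrpl18 had -0.33 in beta cells (22.1 and 20.1 CPM) and 0.64 in PP cells (15.4 and 25.4 CPM). The difference between types was not tested in any of them, since each type has 1 library per diet and the intervals cover counting error only. Of all genes tested in both types, 5.43% had intervals on opposite sides of 0 in beta and alpha cells, 1.61% in beta and delta cells and 2.14% in beta and PP cells, against 2.63%, 1.33% and 1.41% of the members.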

How the results depend on the processing

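The median relative diet ratio of the members in beta cells, -0.49, stayed below 0 under each alternative run. It was -0.51 with TMM factors, -0.51 with DESeq2 size factors, -0.43 against genes of like expression, -0.34 against genes of like length and expression (20 members past the fold on the low side), -0.48 with at least 200 counts, -0.51 with no minimum, -0.48 with doublets kept, -0.46 at equal depth, -0.51 without cells that met several cuts, -0.51 with an insulin cut of 40% and -0.39 without cells holding heat-shock UMIs. By insulin share it was -0.35 (21 past the fold), -0.52 and -0.38 (23 past the fold), and in clusters 0, 1, 4 and 6 it was -0.20 (10), -0.23 (5), -0.12 (4) and -0.19 (3). Members above 0, of which there were 0 over all beta cells, numbered 4 and 3 in the lowest and highest insulin range and 19, 15, 22 and 18 in clusters 0, 1, 4 and 6. For the centring on length and expression, the share of all genes past the fold was not counted. A change of sign was followed only for members named by rule that were past the fold over all beta cells. Named members inside the fold are therefore not listed here. Those that changed sign were Mrps6 at 20 to 40% insulin (0.16), and in cluster 0 Mrpl46 (0.0652), Mrps25 (0.037), Mrpl35 (0.13) and Mrps6 (0.54). In cluster 4 they were Mrpl57 (0.0022), Mrpl42 (0.10), Mrpl46 (0.22), Mrpl41 (0.041) and Mrpl47 (0.24), and in cluster 6 Mrpl41 (0.013) and Mrps6 (0.61). These subsets hold fewer cells; the cause was not tested. In alpha cells 0 members were past the fold on the low side with at least 200 counts. In delta cells that number was 0 against genes of like expression, against genes of like length and expression, with at least 200 counts, with doublets kept and without cells that met several cuts, and 2 with no minimum and at equal depth. In PP cells the median was -0.16 with DESeq2 size factors, -0.020 with at least 200 counts (19 below 0, 0 past the fold), -0.15 with no minimum (9 past the fold), 0 at equal depth (15 below 0, 3 past the fold) and -0.018 against genes of like length and expression; higher minimums and equal depth leave fewer members. For the type test, members called higher in alpha cells numbered 17 (4 lower) with library sizes without hormone genes, 22 without the library block and 24 with 2 types in the fit, and 1 was called lower without a filter on low counts. In delta cells 21 were called higher without the block, and 0 lower without the block or with DESeq2. In PP cells 13 were called higher at equal depth and 0 lower without the block. With 1 library left out there is no test, and the median type ratio ranged from 0.24 to 0.64 in alpha, 0.20 to 0.50 in delta and 0.12 to 0.48 in PP cells. The diet comparison has 1 library per group and no replicate check.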
